A study of Mus musculus with 20 samples.

Results

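Cerebellum-only sites in genes of all regions are edited cytidines that were listed in mouse cerebellum, but neither in cortex nor in hippocampus, although the gene that carries them had at least 1 listed site in each of the 3 regions. They were selected on presence in the authors' site lists: the gene symbol had to occur in all 3 lists, and the site, taken as chromosome, position and strand, had to be missing from the cortical and the hippocampal list. This gave 2591 sites among the 25978 different sites of the 3 lists. They made up 22.7% of the 11391 cerebellar sites, and 64.5% of the 4018 sites listed in cerebellum alone. The other sites listed in cerebellum alone lay in genes that had no site in at least 1 of the other regions.

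N6-methyladenosine (m6A) is a methyl mark that a methyltransferase complex places on adenosines of messenger RNA, mostly within a short sequence in which the methylated adenosine is followed by a cytidine. Proteins with a YTH domain bind the mark and affect the splicing, transport, translation and decay of the transcript, and in neurons m6A is known for roles in development, synaptic function and axonal RNA. Sites gather in long internal exons and around the stop codon and 3′ UTR, and one transcript can carry many of them.

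The mice carried a transgene, inducible by tamoxifen, for APOBEC1-YTH, which joins the cytidine deaminase APOBEC1 to the YTH domain, so that a cytidine beside an m6A is read as uridine in RNA sequencing. Whole cortex, hippocampus and cerebellum of 4 APOBEC1-YTH animal numbers gave 4 libraries per region, and mice with the background control transgene APOBEC1-YTHmut gave 3 cortical, 2 hippocampal and 3 cerebellar libraries. All animals had received intraperitoneal tamoxifen at 20 mg/kg 24 h apart over 5 days, and were sampled 7 days after the final injection. No label names the promoter of the transgene or the cells that express it. Each region had 1 list with 1 value per site, read as the percent of edited reads pooled over its APOBEC1-YTH libraries and called the editing level.

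No library's own value and no read depth stood in the lists, so no level has a replicate error, no difference between regions could be tested, and every comparison is a description of these 3 lists. No listed level was below 1%. A site absent from a list may have been unedited, edited below the limit of the caller, or covered by too few reads, and these cannot be told apart. In bulk tissue, fewer cells of a type and less RNA per cell cannot be told apart either. Of marker genes with a site in any list, 20 of 20 for Purkinje cells, 5 of 8 for granule cells and 5 of 18 for forebrain neurons had a site in cerebellum, against 59.7% of all listed genes. So did 19 of 19 for Bergmann glia and astrocytes, and 7 of 8 each for cerebellar inhibitory interneurons and oligodendrocytes. For choroid plexus it was 3 of 3, and for microglia 0 of 1. A full or nearly full share was thus not particular to Purkinje cell markers.

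Sequence could be read at few sites, because only windows around RefSeq gene starts were at hand. In all, 29 listed sites of the 3 regions fell in such windows. At every one the 3 bases that ended at the listed position were GAC (16 sites) or AAC (13 sites). At these 29 sites the listed position is thus the cytidine after a candidate methylated adenosine. The caller is not given, so whether it kept only such bases is not known. One of the 29 was a cerebellum-only site, in Insyn1, which encodes an inhibitory synaptic factor that binds gephyrin. It is printed here with a cortical site of the same gene because sequence was at hand for both. Each of the pair was listed in 1 region, but the rule asked this of the cerebellar site alone. For 62.4% of cerebellum-only sites the nearest site of the other lists was itself listed in cerebellum. Both windows are from RefSeq, build GRCm38.p6 (mm10), plus strand, and the capitals mark the 3 bases that end at the edited cytidine.
Insyn1, cerebellum only, chr9:58488594-58488614: aaggaatccgGACtttcccca
Insyn1, cortex only, chr9:58488632-58488652: tgccgggctgGACtgagcggt
The first site, at position 58488606, is base 4 of the annotated transcript and had an editing level of 1.39% in cerebellum. The second, at position 58488644, is base 42, and had a level of 1.23% in cortex. Both levels were near the 1% floor of the lists.

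Of the 1608 genes with a site in every region, 847 (52.7%) held at least 1 cerebellum-only site, and 26.8% of the 9672 cerebellar sites of the 1608 genes were cerebellum-only (exact binomial 95% interval 25.9 to 27.7%, which treats sites as independent and does not cover animals). Cerebellum was not alone in this. Under the same rule, 3966 sites in 1144 genes were cortex-only, which was 29.6% of the cortical sites of these genes. Another 2176 sites in 917 genes were hippocampus-only, or 20.1% of the hippocampal sites. Read depth is not known and hippocampus had 2 background libraries against 3 elsewhere, so these shares do not rank the regions. Of the 847 genes, 636 (75.1%) also held a cortex-only site, against 71.1% of all 1608 genes, and 505 (59.6%) also held a hippocampus-only site, against 57.0%.

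The sites were spread unevenly over genes. A single cerebellum-only site was found in 385 genes and a pair in 168 genes, while 141 genes (8.77% of 1608) held 5 or more and together accounted for 52.7% of the sites. The 48 genes with 10 or more held 30.1%. The share of genes with such a site followed the number of cerebellar sites, from 14.7% of genes with 1 cerebellar site to 93.9% of genes with 20 or more. The share of sites that were cerebellum-only was 14.7% in genes with 1 cerebellar site, 26.8% in genes with 2 to 4, 27.9% with 5 to 9, 24.9% with 10 to 19 and 29.0% with 20 or more. A larger number of sites in cerebellum was not the rule: 286 of the 847 genes had more cerebellar sites than either other list, and 209 had fewer than both. In 83 genes every cerebellar site was cerebellum-only.

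The gene with the most cerebellum-only sites was Rgs8, a regulator of G-protein signalling that is strongly expressed in Purkinje cells, the output neurons of the cerebellar cortex. Of its 57 cerebellar sites 55 were listed nowhere else. Their levels ran from 1.01% to 14.66%, with a median of 3.30%. The other 2 were listed in 1 forebrain region each: position 153697427 of chromosome 1 had a level of 18.88% in cerebellum and 2.78% in cortex, and position 153697528 had 12.11% in cerebellum and 3.12% in hippocampus. These were also the only sites of Rgs8 in the other lists, so the gene met the rule through 1 cortical and 1 hippocampal site. Of its cerebellum-only sites, 49 lay 5′ of both, in an unbroken run over chr1:153692964-153697411.

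Next in number was Arhgap5, which encodes a GTPase-activating protein, with 38 cerebellum-only of 57 cerebellar sites, beside 18 cortical and 8 hippocampal sites. Cerk encodes ceramide kinase, which phosphorylates the membrane lipid ceramide. Its 33 cerebellar sites included 31 cerebellum-only sites, with a median level of 3.45% and a highest level of 16.78%. The other 2 Cerk sites were higher in cerebellum than elsewhere, at 6.38% against 2.47% in cortex and 3.28% in hippocampus, and at 9.20% against 2.99% in cortex. Lpgat1, an acyltransferase gene of phospholipid synthesis, held 29 cerebellum-only sites of 43. Adam23, which encodes a membrane protein of the ADAM family that binds LGI proteins at synapses, held 25 of 43.

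Kctd12 encodes an auxiliary subunit of the GABA-B receptor, the G-protein-coupled receptor for the inhibitory transmitter GABA. It had 40 cerebellar sites, 5 cortical and 9 hippocampal sites, and 29 of the cerebellar sites were listed nowhere else. Their levels ran from 1.38% to 16.07%, with a median of 3.25%. At the sites it shared, the cerebellar level was the higher one at 4 of 5 shared with cortex and 7 of 8 shared with hippocampus. Position 102980356 of chromosome 14 had 28.09% against 4.90% in hippocampus, whereas position 102980946 had 1.53% against 4.17% in cortex. Both subunit genes of the receptor itself were also hosts. Gabbr2 held 19 cerebellum-only of 33 cerebellar sites, and Gabbr1 held 5 of 8.

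The remaining genes among the 15 with the most such sites, apart from Asph, follow. Ptpn4, a tyrosine phosphatase gene, held 19 of 22 cerebellar sites, and Fndc5, the gene of the precursor of irisin, 18 of 24. The astrocytic water channel gene Aqp4 held 19 of 40. Frrs1l, whose product assists the assembly of AMPA-type glutamate receptors, held 18 of 61, and Atp2b2, a plasma membrane calcium pump gene, 17 of 57. In these last genes the other lists were long too, with 50 sites in each for Frrs1l, and 43 cortical and 34 hippocampal sites for Atp2b2. Ankrd40 held 17 of 38 and the potassium channel gene Kcna6 15 of 18.

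**Figure D1:**
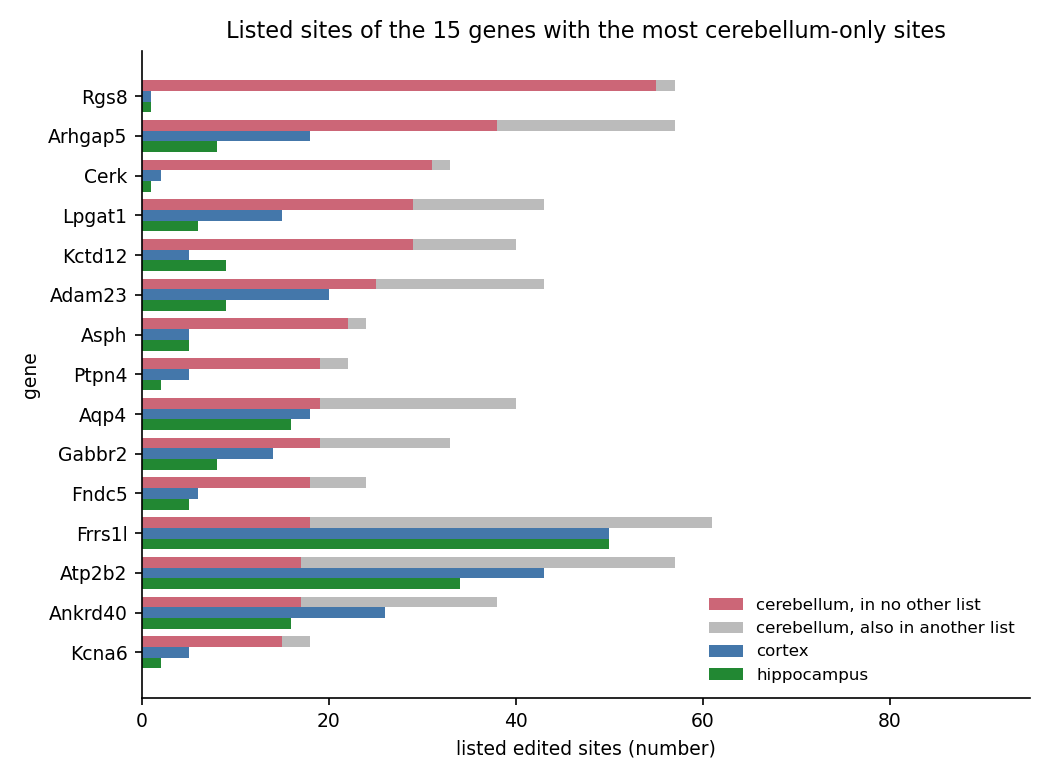
Number of listed edited sites (x axis) in the 15 genes with the most cerebellum-only sites (y axis); the upper bar of each gene is cerebellum, split into sites in no other list (red) and sites also in another list (grey), and the lower bars are cortex (blue) and hippocampus (green). Rgs8, with 55 of 57 sites in no other list, and Cerk, with 31 of 33, had next to no forebrain sites, while Frrs1l had 50 in each forebrain list.

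In some genes nearly all cerebellar sites differed from those of the other regions. Among genes with at least 5 cerebellum-only sites, this was so for all 9 cerebellar sites of Slc4a10, a gene of a sodium-coupled bicarbonate transporter, and for all 5 of Efr3a, whose product anchors a phosphatidylinositol kinase at the plasma membrane. Slc4a10 shows the arrangement at close range. It had cortical sites at positions 62324851 (2.23%) and 62325731 (2.60%) of chromosome 2 and a hippocampal site at 62324961 (1.44%). Between them lay 7 cerebellar sites, from 62325020 to 62325551, with levels of 2.21%, 4.41%, 8.89%, 3.85%, 3.36%, 5.22% and 3.05% in order along the RNA, and another 2 followed at 62326100 (3.39%) and 62326141 (5.15%). No position was shared, and every cerebellar level but 1 was at or above 3%. Kcnd3, which encodes an A-type potassium channel subunit, held 7 of 8, and it also had 5 sites in hippocampus that were all hippocampus-only.

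Cerebellum-only sites were edited at low levels. Their median level was 2.50%, with quartiles of 1.71% and 3.89% and a 90th percentile of 5.88%, and the highest was 78.05%. The other cerebellar sites of genes of all regions had a median of 3.61%. Listing rests on the same measurement as the level, so the rule is not independent of it and this difference is given with no test. It ran in steps: the median cerebellar level was 3.99% for 4942 sites in all 3 lists, 3.16% for 1450 sites also in cortex but not hippocampus, 2.63% for 689 sites also in hippocampus but not cortex, and 2.50% for the cerebellum-only sites. Cortex-only sites (2.15%, against 3.19% for the other cortical sites) and hippocampus-only sites (1.82%, against 3.14%) were likewise the lower ones of their lists.

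**Figure D2:**
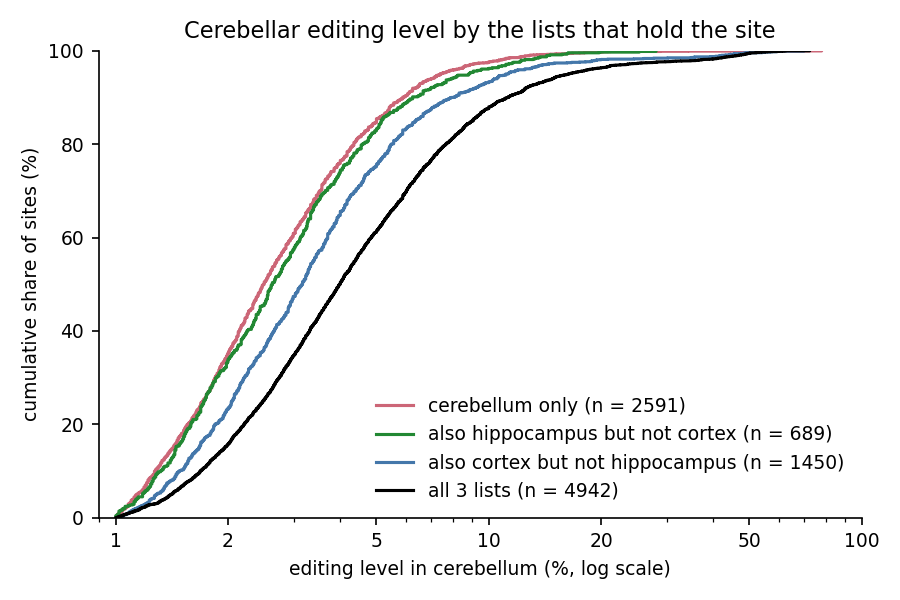
Cumulative share of cerebellar sites in genes of all regions (y axis, percent) against their editing level in cerebellum (x axis, percent, log scale), with 1 line for each combination of lists that holds the site. The line of cerebellum-only sites (red, median 2.50%) lies to the left of that of sites in all 3 lists (black, median 3.99%) over most of the range.

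The share of cerebellar sites that were cerebellum-only fell with level. It was 40.3% of 2242 sites at 1 to 2%, 31.5% at 2 to 3%, 24.7% at 3 to 5%, 16.7% at 5 to 10% and 9.95% of 583 sites at 10 to 20%. Of 93 sites at 20 to 35% it was 6.45% (6 sites), and of 128 sites at 35% or more it was 1.56% (2 sites). Within genes the order was the same. In 616 of 764 genes that had both kinds, the median level of the cerebellum-only sites was below that of the gene's other cerebellar sites, and so it was in 116 of 121 genes with at least 5 of the former and 3 of the latter.

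A few cerebellum-only sites had high levels. The 2 sites above 35% were in Cadm3, a gene of a synaptic cell adhesion molecule, and Kif5c, a neuronal kinesin gene. The Cadm3 site, at position 173343346 of chromosome 1, had a level of 78.05%. It lay 6340 nt 5′ of the nearest site of the other lists, which held 12 cortical and 17 hippocampal Cadm3 sites, none above 6.04%. The only other cerebellar site of Cadm3 had 1.89%. The Kif5c site had a level of 44.30% and lay 48060 nt 5′ of the nearest site of the other lists. The other 23 cerebellar sites of Kif5c had a median of 2.33% and a highest level of 11.76%. The heat shock protein gene Dnajb4 followed with 34.21% and the mitochondrial ribosomal protein gene Mrps27 with 28.89%, each the only cerebellum-only site of its gene. The other cerebellar site of Dnajb4 had 2.35%, and Mrps27 had no other. Sequence, read depth and library values were not at hand for these sites, so whether they are edited cytidines was not tested.

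Below these, Kcna6 reached 21.21%, and Slc32a1, the gene of the vesicular transporter that loads GABA into synaptic vesicles, reached 20.83%, at a site 59 nt from a site with a level of 2.35% in another list. The chloride transporter gene Clcn3 reached 20.18% at a site only 9 nt from such a site, whose level there was 1.46%. The single such site of Parva, a gene of an adhesion protein that binds actin, had a level of 20.00%, and Plpp6, a lipid phosphatase gene, reached 18.92% at 3 nt from a site with 9.52%. Median levels over the cerebellum-only sites of 1 gene, among genes with at least 5, were highest in Dcp2, which encodes an mRNA decapping enzyme (10.34% over 6 sites), Atrnl1 (7.32% over 5 sites) and Kcna6 (6.52% over 15 sites). Among the low ones were Ubl3 (1.18%) and the translation initiation factor gene Eif5 (1.29%), near the floor of the lists.

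Cerebellum-only sites were close to sites of the other regions. The distance along the genome to the nearest cortical or hippocampal site of the same gene and strand had a median of 80 nt, with quartiles of 25 and 253 nt. It was at most 10 nt for 12.1% of the sites, at most 50 nt for 39.3% and at most 1 kb for 91.5%. The smallest distance was 3 nt, seen for 36 sites, and 3 nt was also the smallest spacing within each list. The nearest site was in the cortical list alone for 41.6%, in the hippocampal list alone for 20.1% and in both for 38.2%. It was itself listed in cerebellum for 62.4%.

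Sites listed in a single forebrain region lay somewhat closer to the other lists. The median distance was 65 nt for cortex-only and 52 nt for hippocampus-only sites, and 43.9% and 48.9% of them lay within 50 nt. The lists searched differ in length between these 3 cases, and the difference was not tested. Against the cortical list alone the median for cerebellum-only sites was 105 nt, and against the hippocampal list alone 147 nt.

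**Figure D3:**
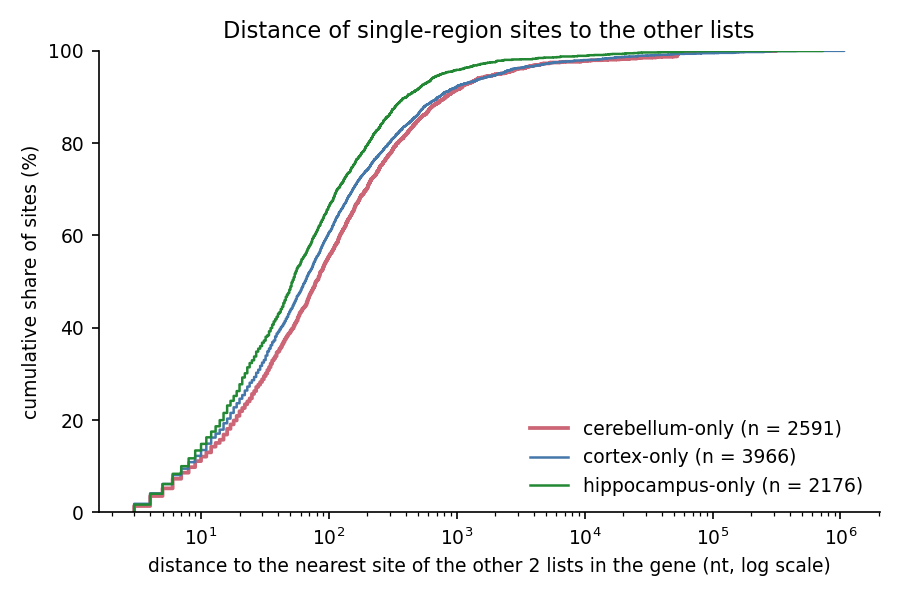
Cumulative share of sites listed in 1 region (y axis, percent) against the distance to the nearest site of the other lists in the same gene (x axis, nt, log scale), for cerebellum-only (red, n = 2591), cortex-only (blue, n = 3966) and hippocampus-only sites (green, n = 2176). The medians were 80, 65 and 52 nt, and over 90% of each set lay within 1 kb.

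Most cerebellum-only sites lay inside the stretch that the other regions also used. Of all, 70.1% stood between the outermost cortical or hippocampal sites of the gene, 388 lay beyond the 5′ end of that stretch and 388 beyond the 3′ end. A cerebellum-only site was 3′ of its nearest neighbour in 50.1% of cases, so neither side prevailed. Levels varied little with the distance: the median was 2.41% within 10 nt, 2.44% from there to 50 nt, 2.42% to 200 nt, 2.61% to 1 kb and 2.78% beyond. Of the sites that lay in the span of a RefSeq gene (2551 of 2591), the median distance to the annotated 3′ end was 1517 nt, against 1531 nt for the other cerebellar sites of genes that hold a cerebellum-only site. A distance of at most 5 kb was seen for 86.4%, against 89.9% of the other cerebellar sites of genes of all regions.

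Close and far placement both occurred in genes with many sites. Among genes with at least 5 cerebellum-only sites, the median distance was shortest in Dst, a cytoskeletal linker gene (5.5 nt), Agpat3, an acyltransferase gene (11 nt), and, at 12 nt each, Myh10, a nonmuscle myosin gene, Paqr8 and Pcdhgc3. In these genes the cerebellar sites interleaved with those of the other regions. At the other end, 219 sites in 92 genes lay over 1 kb from any site of the other lists, and 58 sites in 28 genes over 10 kb. Asph, the gene of aspartate beta-hydroxylase and related proteins made from alternative transcripts, held 22 of those 58.

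In Asph most cerebellar sites lay in a stretch apart from the sites of the other regions. All 7 listed positions of cortex and hippocampus lay between positions 9629660 and 9630701 of chromosome 4, with levels of 1.23% to 4.84% in cortex and 2.25% to 6.94% in hippocampus. Cerebellum shared 2 of them, at 4.49% and 1.55%. The other 22 cerebellar sites formed a separate run over chr4:9575339-9576929, which is 52731 to 54321 nt farther 3′ along the RNA and at least 126254 nt before the annotated 3′ end of the gene. Their levels ran from 1.39% to 15.09% with a median of 2.94%, a range that covers the levels of the 2 shared sites. Whether it lies in another transcript form was not tested, since no exon annotation was used.

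Some other genes also had large median distances, below that of Asph. All 6 cerebellum-only sites of Metrn, the gene of the secreted protein meteorin, lay 1288 to 2344 nt from its single shared site, with a median level of 4.33% against 2.68% at the shared site in cerebellum. The farthest of the 6, at position 25793943 of chromosome 17, lay beyond the annotated 3′ end of Metrn at 25794571. In Sema4g, a semaphorin gene, the median distance was 3069.5 nt over 6 sites, and in Dcp2 3340.5 nt over 6. These 2 genes also had a single position in the other lists, and their closest cerebellum-only sites lay 99 nt (Sema4g) and 4 nt (Dcp2) from it. Gabbr1 had a median of 9332 nt over 5 sites, all of them between sites of the other lists. Farthest within 100 kb were single sites of Kifap3, a gene of a kinesin-associated protein (99956 nt), and Cdc42bpa, a kinase gene (89644 nt). Both had low levels, of 1.46% and 2.25%.

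Sites also came in runs. A run of at least 5 cerebellum-only sites with no other listed site of any region between them was found 42 times in 37 genes, and these runs held 354 sites, or 13.7%. Their median length was 960.5 nt. The runs with the most sites were that of Rgs8, with 49 sites over 4448 nt and a median level of 2.97%, and that of Asph, with 22 sites over 1591 nt. Kctd12 had a run of 18 sites over 2266 nt, and Ptpn4 had 14 over 6120 nt.

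Cerk had 2 runs of 14, on either side of its site common to all lists. In Kcna6 a run of 11 over 1802 nt had a median level of 7.50%, the highest among runs of 10 or more. Of all cerebellum-only sites, 25.6% had another within 50 nt, and whether such neighbours report 1 m6A was not tested.

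**Figure D4:**
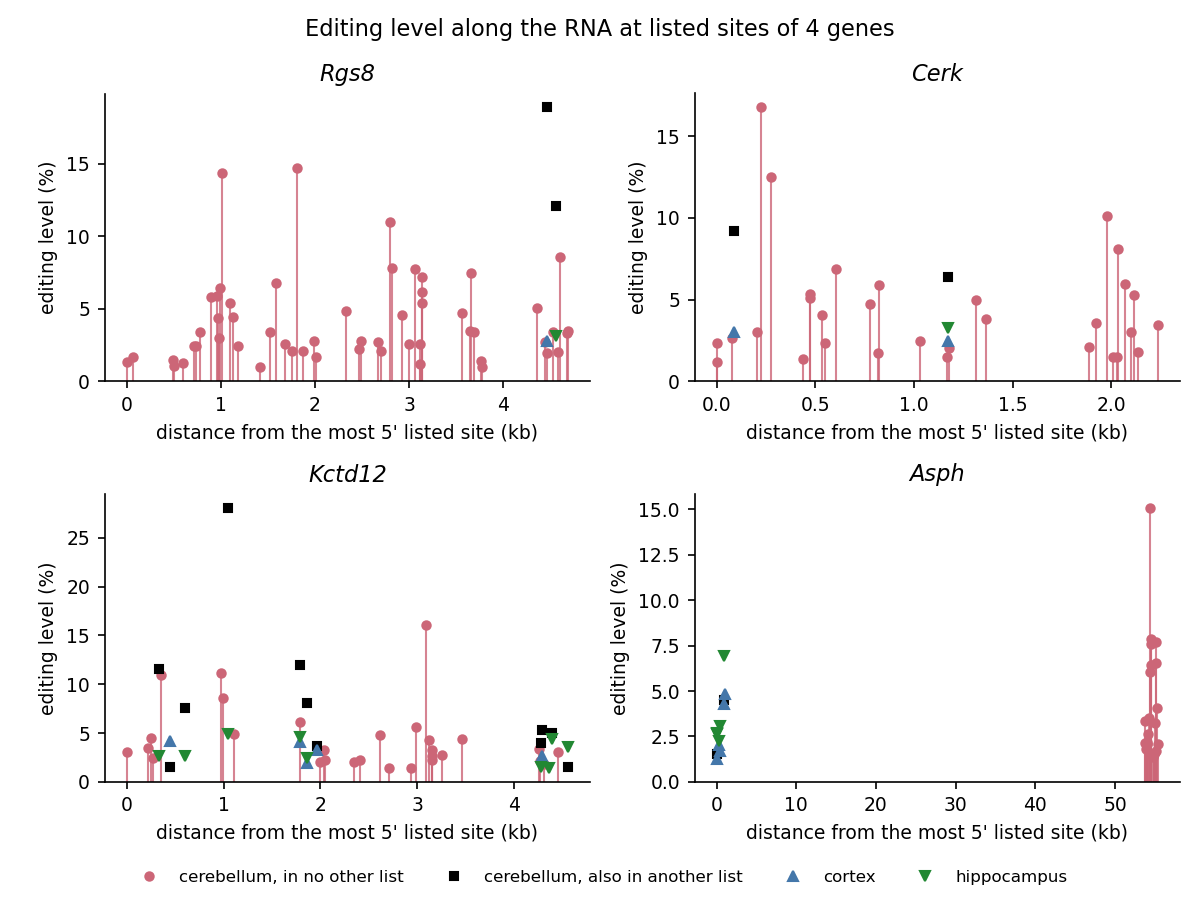
Editing level (y axis, percent) at every listed site of Rgs8, Cerk, Kctd12 and Asph against the distance along the RNA direction from the most 5′ listed site (x axis, kb of genome); red points with stems are cerebellum-only sites, black squares are cerebellar levels of sites also in another list, and triangles are cortical (blue) and hippocampal (green) levels. Cerebellum-only sites fill stretches of Rgs8, Cerk and Kctd12 with no other listed site, and form a remote group near 54 kb in Asph.

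Genes with many cerebellum-only sites had higher levels more often in cerebellum at the sites they shared with the other regions. Shared sites are not cerebellum-only sites, but they come from the same lists, so this is no independent evidence. Per gene, the median log2 ratio of the cerebellar to the cortical level at shared sites had a median of -0.05 over genes with no cerebellum-only site, 0.10 over genes with 1 to 4, 0.43 over genes with 5 to 9 and 0.53 over genes with 10 or more. The cerebellar level was the higher one in 46.9%, 58.0%, 78.9% and 83.3% of these genes. Against hippocampus the ratios were -0.06, 0.15, 0.38 and 0.59. Gabbr2 (1.38 over 13 sites shared with cortex), Kcnab2 (1.45 over 8) and Itpr1 (1.70 over 3) were high in this respect, and Aqp4 went the other way (-0.29 over 15 sites).

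Gene groups differed in how many of their cerebellar sites were cerebellum-only, against 26.8% over all genes of all regions, where 52.7% of genes held at least 1. The counts are descriptions with no test, single genes carry much of them, and a gene can stand in more than 1 group. Of 6 Purkinje cell marker genes with sites in every region, 5 held cerebellum-only sites, which made up 100 of 158 cerebellar sites (63.3%). Rgs8 alone held 55 of these 100 sites, and 57 of the 158. Besides Rgs8 and Atp2b2 (17 of 57) the 5 genes included Itpr1, the receptor channel that releases calcium from the endoplasmic reticulum (12 of 16), and Dner, a Notch ligand gene (11 of 16). Itpr1 sites had a median level of 3.31%, and Dner sites of 2.54%. The median number of cerebellum-only sites per gene was 11.5 in this group, against 1 over all 1608 genes. These 6 genes had many cerebellar sites, 158 against 9672 over the 1608 genes, and such counts depend on that number. Of genes with 20 or more cerebellar sites, 93.9% held a cerebellum-only site.

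Of the cerebellar sites of 19 potassium channel genes, 89 of 202 (44.1%) were cerebellum-only. They lay in 16 of the genes (84.2%, against 52.7% of all 1608 genes, a share that depends on the number of cerebellar sites per gene as given above). The cytoplasmic beta subunit genes Kcnab2 (14 of 22) and Kcnab1 (11 of 14) stood beside Kcna6, a pore-forming subunit gene of the family that these beta subunits bind. The astrocytic channel gene Kcnj10 had 9 of 42, with 51 cortical sites. Among genes of GABA and glycine receptors and their partners, 7 of 10 held 60 of 145 (41.4%), among them Gabbr2 and Insyn1 (12 of 27). Regulators of G-protein signalling and G proteins had 84 of 141 (59.6%), but 55 of these were in Rgs8, and Rgs7bp (14 of 36) and Gnao1 (8 of 16) held most of the rest. All 5 marker genes of cerebellar inhibitory interneurons with sites in every region held some, 24 of 56 (42.9%), of which 14 were in Lgi2, the gene of a secreted ligand of ADAM proteins. Lgi2 sites had a median level of 5.17%. For these groups too, the share of genes with such a site stands against 52.7% of all 1608 genes and depends on the number of cerebellar sites per gene.

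Glutamate receptor and scaffold genes had 59 of 206 (28.6%), near the share over all genes, with Dlg2 (9 of 13) and Shank2 (8 of 11), both genes of postsynaptic scaffolds, far above Frrs1l and above the AMPA receptor subunit gene Gria1 (11 of 38). Markers of Bergmann glia and astrocytes had 52 of 204 (25.5%), and Aqp4, the glutamate transporter gene Slc1a2 (13 of 62) and Ptprz1 (10 of 35) led them. Calcium pump, store and kinase genes had 72 of 288.

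Lower shares were found in genes of the axonal cytoskeleton, with 78 of 404 (19.3%). They lay in 20 of 24 genes, or 83.3%, against 52.7% of all genes. The share was 80.7% of genes with 10 to 19 cerebellar sites, but not all genes of this group fall in that class. Here the heavy neurofilament gene Nefh had 9 of 17 and the microtubule-associated protein gene Map1b 15 of 72. Synaptic organiser and adhesion genes had 45 of 208 (21.6%), and forebrain neuron markers 9 of 42 (21.4%), which lay in Camk2a and Nptx1. Granule cell markers, from the most numerous neurons of the cerebellum, had 3 of 19 (15.8%), in 3 of 4 genes. Oligodendrocyte markers had 3 of 30. The choroid plexus list went the other way, with 8 of 11 (72.7%), the largest share of any list. All were in Enpp2, its only gene with sites in every region, which oligodendrocytes also express. No microglial marker had a cerebellar site, but only 1 of the 11 had a site in any list.

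**Figure D5:**
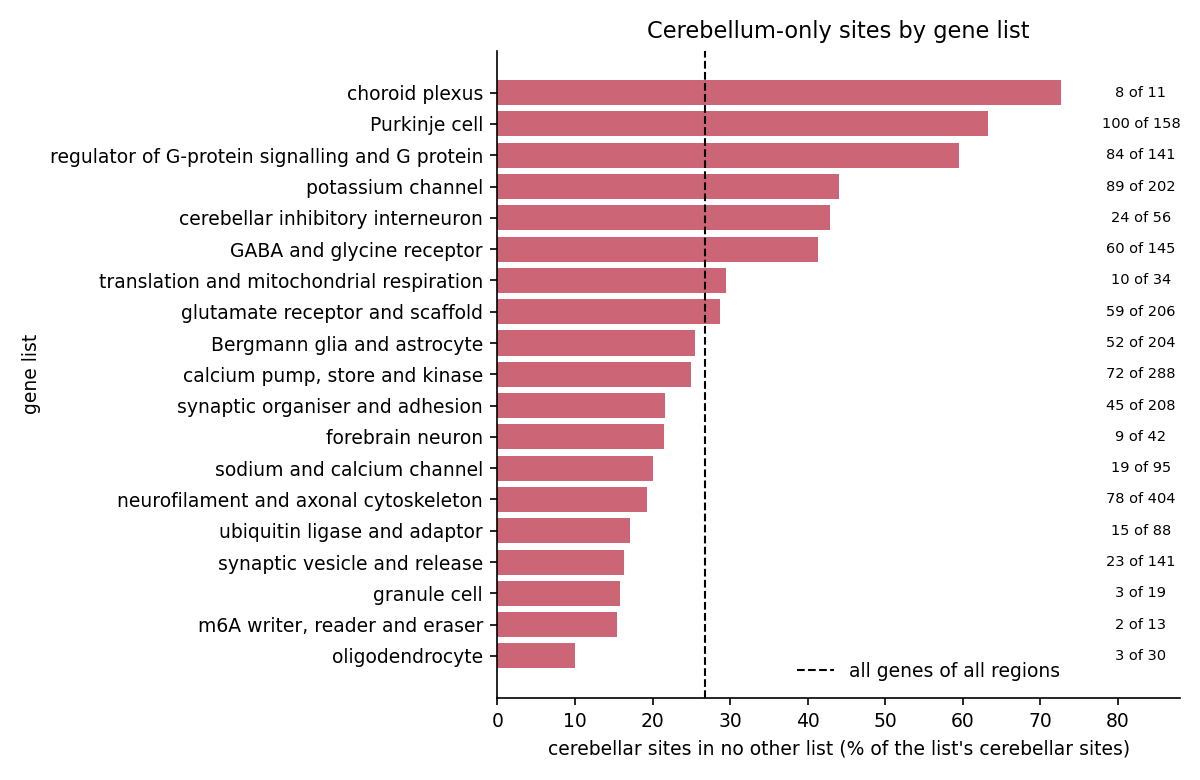
Share of the cerebellar sites of each gene list that were cerebellum-only (x axis, percent; bars by gene list on the y axis), with the number of sites printed at the right and the share over all genes of all regions, 26.8%, as a dashed line. Purkinje cell (63.3%) and potassium channel genes (44.1%) lie above the line, and granule cell (15.8%) and synaptic vesicle genes (16.3%) below it. Rgs8 alone held 55 of the 100 cerebellum-only sites of the Purkinje cell list.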

How the data were processed

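Bulk poly(A) RNA-seq libraries were made from 900 ng of total RNA with a directional kit, per the labels' protocols, and aligned with STAR 2.7.5 to mm10, per the submitters' processing notes. APOBEC1-YTHmut libraries served as background for site calling, per the labels. Which caller and thresholds were used and how libraries were pooled is not given in the sources at hand. The authors deposited 1 headerless list per region, of positions, genes and strands with a fraction per site, which was multiplied by 100 and read as the pooled share of edited reads, an assumption. The lists give no depth, so precision is unknown, and no test was made. Sites were matched on chromosome, position and strand, and distances were taken within gene and strand. Gene spans and sequence windows came from RefSeq (GRCm38.p6). Of 1608 genes, 1596 matched, 5 by synonym. Membership and distances were checked on simulated lists.

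The genes named were the 15 with the most cerebellum-only sites, the extremes in share, level and distance among genes with at least 5, the highest and the farthest (within 100 kb) sites, up to 4 genes of a list, and the genes with the most cerebellar sites and no cerebellum-only one; genes named beyond this rule were chosen after their values were seen. Some genes that the rule names are left out of the text. The members, lists and rules were chosen with earlier results of these data known. Alternatives were position tolerances, level limits, merging of sites within 10 nt, minimum site numbers and 1 value a gene. Shares have exact binomial 95% intervals. Tables were handled with pandas 2.3.3 in Python 3.11.15, intervals computed with scipy 1.17.1 (numpy 2.4.6) and figures drawn with matplotlib 3.10.9.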

Additional observations from a re-analysis of the deposited data

How the results depend on the processing

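Of 73 alternative values, 35 stayed within the interval or 1.5-fold range of the reported value and 38 did not; these follow. Tolerance: with sites absent within 10 nt the share of cerebellar sites was 23.6%, and within 50 nt the number was 1572 and the share 16.3%. Level: with cerebellar levels of at least 10% there were 66 sites (8.21%) in 46 genes; with at least 2% there were 1687 (22.7%), with median levels of 3.38% against 4.30% for the other cerebellar sites. With levels under 10% removed from every list there were 164 sites (31.7%) in 79 genes, median levels of 12.5% and 18.2%, a median distance of 140 nt and 30.5% within 50 nt. Site number: with at least 2 sites per list the share was 24.7%, the median level 2.38%, the distance 70 nt and 42.5% lay within 50 nt; with at least 5 the values were 1362 sites, 21.7%, 325 genes, 2.24% against 3.50%, 60 nt and 45.5%. Merging within 10 nt gave a share of 30.0% and median levels of 2.60% and 3.73%. With 1 value a gene the other sites had a median of 3.80%, and 42.4% of sites lay within 50 nt. Against the cortical list alone the distance was 105 nt, with 33.3% within 50 nt, and against the hippocampal list alone 147 nt, with 28.4%. Leaving out the 7 genes with 20 or more cerebellum-only sites, chosen after seeing the data, gave a share of 25.2%, and leaving out Rgs8 moved no value beyond its range. In each of the 7 settings of any kind that gave both median levels, and in the 2 omissions, cerebellum-only sites had the lower median level.

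No paired analysis was possible because the lists hold no value per library. Without depth, an unedited site and one with too few reads cannot be told apart. Hippocampus had 2 background libraries against 3 elsewhere, and the effect of this was not tested.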

Other observations

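Some genes with many cerebellar sites held no cerebellum-only site. Peg13, an imprinted noncoding RNA gene, had 35 cerebellar sites, all also listed in cortex or hippocampus, where it had 48 and 47. The lysosomal sulfatase gene Ids had 28, the RNA-binding protein gene Celf4 27, Ube2ql1 and Epb41l1 24 each, Cbarp 20, Timp2, the gene of a metalloproteinase inhibitor, 18 and the amyloid precursor gene App 17. All 8 had more sites in cortex than in cerebellum. In genes of synaptic vesicles and release, 23 of 141 cerebellar sites (16.3%, against 26.8% over all genes of all regions) were cerebellum-only, with no gene above 4. They lay in 12 of 24 genes, near the 52.7% of all genes.

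Beyond the limit of 100 kb, chosen after their distances were seen, single cerebellum-only sites lay 316097 nt from the nearest other site in Dpp10, 307213 nt in Nell2, 163325 nt in Itpr1, 141766 nt in Gria1 and 137551 nt in Aak1. All 5 were 5′ of that site within the same gene symbol, and their levels were 1.44%, 3.64%, 2.91%, 1.81% and 2.50%.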
